A study of Mus musculus with 9 samples.

Results

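The genes described here encode the building blocks of the cornified envelope, the protein shell that replaces the plasma membrane of a keratinocyte as it becomes a dead, flattened cell of the skin surface. They were chosen by name: every entry whose symbol begins with Lce or Sprr and a digit, plus the named genes Lor, Ivl, Flg2, Hrnr, Rptn, Tchh, Tchhl1, Crct1, Lelp1 and Crnn. This gave 47 of the 23282 entries in each count table. They comprise 14 Lce1 genes, 6 Lce3 genes, Lce6a, 2 Sprr1 genes, 12 Sprr2 genes, Sprr3 and Sprr4, 6 S100-fused genes (Flg2, Hrnr, Rptn, Tchh, Tchhl1 and Crnn) and 4 others (Lor, Ivl, Crct1 and Lelp1). Flg, also named in the rule, was not analysed here.

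Back skin of wild-type C57BL/6 (B6) mice was sequenced with Lexogen QuantSeq, a method that counts tags from transcript ends, in 9 libraries. There were 3 libraries in each of 3 groups. Unstripped skin and one of the tape-stripped groups are labelled as control cream, and the other tape-stripped group received nano-graphene oxide (NGO), sheets of oxidised carbon, mixed into cream at 50 µg in 100 µL per mouse. Skin was taken 24 h after treatment. Tape stripping peels off outer layers of the skin surface, whose dead, flattened cells carry the cornified envelope. The protocol describes cream for the stripped area only, and whether unstripped skin received any is unclear. The sources used here give no age, sex or number of strips. The labels do not state whether each replicate is another animal, and the p-values refer to the spread among these libraries, which may be technical.

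Envelope proteins are cross-linked by transglutaminases. Involucrin (Ivl) is laid down early under the membrane, loricrin (Lor) later forms most of its mass, small proline-rich (SPRR) proteins bridge the others, and late cornified envelope (LCE) proteins are added towards the end. The S100-fused proteins, named for a calcium-binding domain joined to long repeats, fill and brace the cell, and filaggrin-2 and hornerin are the filaggrin-like members of epidermis. In human skin, LCE1 genes belong to resting epidermis, whereas LCE3 genes are switched on after barrier injury. All 47 genes lie on mm10 chromosome 3 between 92080271 and 93471980, within the epidermal differentiation complex, where related genes stand side by side.

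Library totals ran from 2019739 to 6303322 counts. At least 1 count was found for 23 to 27 of the 47 genes in unstripped libraries. In stripped control libraries it was 17 to 24 and in NGO-treated ones 35 to 39. The matching share over all genes is not given here, and the part of depth in these numbers was not tested. A count of 0 in a library allows a level of up to 0.497 to 1.54 CPM (3 counts, counting error alone), where CPM is a gene's count relative to the TMM-scaled library size. The tissue captured also differed between groups. Summed levels of 12 epidermal backbone genes (basal keratin and junction genes such as Krt5, Krt14 and Dsp) were 17886 to 28145 CPM in unstripped, 2081 to 3349 in stripped control and 14625 to 22569 in NGO-treated libraries. Those of 10 skeletal muscle markers were 60.4 to 1076, 40726 to 108460 and 18376 to 40360 CPM, and those of 6 neutrophil markers 32.2 to 44.6, 3363 to 9686 and 465 to 1510 CPM. Rn45s, the ribosomal precursor, was called higher after stripping (log2 fold change 1.15). In bulk tissue, fewer keratinocytes and less RNA per keratinocyte cannot be told apart, and the part of these shifts in the results below was not tested.

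Of the 47 genes, 32 had enough counts to be tested. Lelp1, Sprr2a1, Sprr3, Sprr4 and Crnn had 0 counts in every library, and 10 others had 12 to 85 counts over all 9 libraries (Sprr2j-ps, Sprr2k, Lce1e, Lce1h, Lce1i, Lce1j, Lce1k, Lce3a, Lce3b and Rptn). A gene can pass the low-count filter through the group in which it is high alone, so the counts below describe the tested genes and are no evidence about all 47. The 3 comparisons share libraries, and values for each are set side by side. Groups did not overlap for 6 tested genes higher and 12 lower after stripping (13.8% and 24.7% of all genes), 12 higher and 1 lower with NGO against stripped control skin (16.3% and 8.92%), and 8 higher and 6 lower with NGO against unstripped skin (11.9% and 14.4%).

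Tape stripping divided the envelope genes. With edgeR's quasi-likelihood test and an adjusted p under 0.05, 8 of 32 tested genes were lower in stripped control than in unstripped skin (Flg2, Hrnr, Lor, Ivl, Lce1c, Sprr2a2, Sprr2a3 and Sprr2b) and 6 were higher (Lce3c, Lce3d, Sprr2d, Sprr2f, Sprr2h and Sprr2i). Over all genes tested, 7.64% were called lower and 5.97% higher. The median log2 fold change was -1.42 among the tested envelope genes, -1.49 with genes at 0 in a group set at their bound, and -0.20 over all 13740 genes. Here and below, such a bound sets the pooled level of the other group against 3 counts, and single libraries can lie below it. Without unstripped replicate 1 the lower calls numbered 5, and without unstripped replicate 3 the higher calls numbered 3.

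The NGO cream was followed by higher levels of the filaggrin-like genes. Against stripped control skin, Flg2 and Hrnr were called higher and 0 genes lower by edgeR, against 3.87% and 1.18% of all genes. At an unadjusted p under 0.05, 11 were higher and 1 was lower, against 13.5% and 7.73% of all genes. DESeq2 called 7 higher (Flg2, Hrnr, Ivl, Lce1c, Sprr2a2, Sprr2a3 and Sprr2b) and 1 lower (Sprr2i), against 7.67% and 4.98% of the 13601 genes it tested. An edgeR fit of these 2 groups alone called 0. The median log2 fold change was 1.88 (1.79 with bounds), against 0.07 over all genes. Among the 12 epidermal backbone genes the median was 2.51, with 10 called higher and 0 lower by edgeR, so the rise was not particular to envelope genes. Against unstripped skin, Lce3c and Lce3d were called higher by edgeR and 0 genes lower, with 2.06% and 0.451% of all genes called. At an unadjusted p under 0.05, 11 were higher and 4 lower, against 6.83% and 4.88% of all genes. DESeq2 called 6 higher (Lce3c, Lce3d, Lce3f, Sprr2d, Sprr2f and Sprr2h) and 3 lower (Flg2, Lor and Ivl), against 3.76% and 1.79%. The higher calls fell to 0 without NGO replicate 2, which held the highest Lce3c and Lce3d levels of its group. The median against unstripped skin was 0.57 (0.25 with bounds) and -0.07 over all genes.

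**Figure D1:**
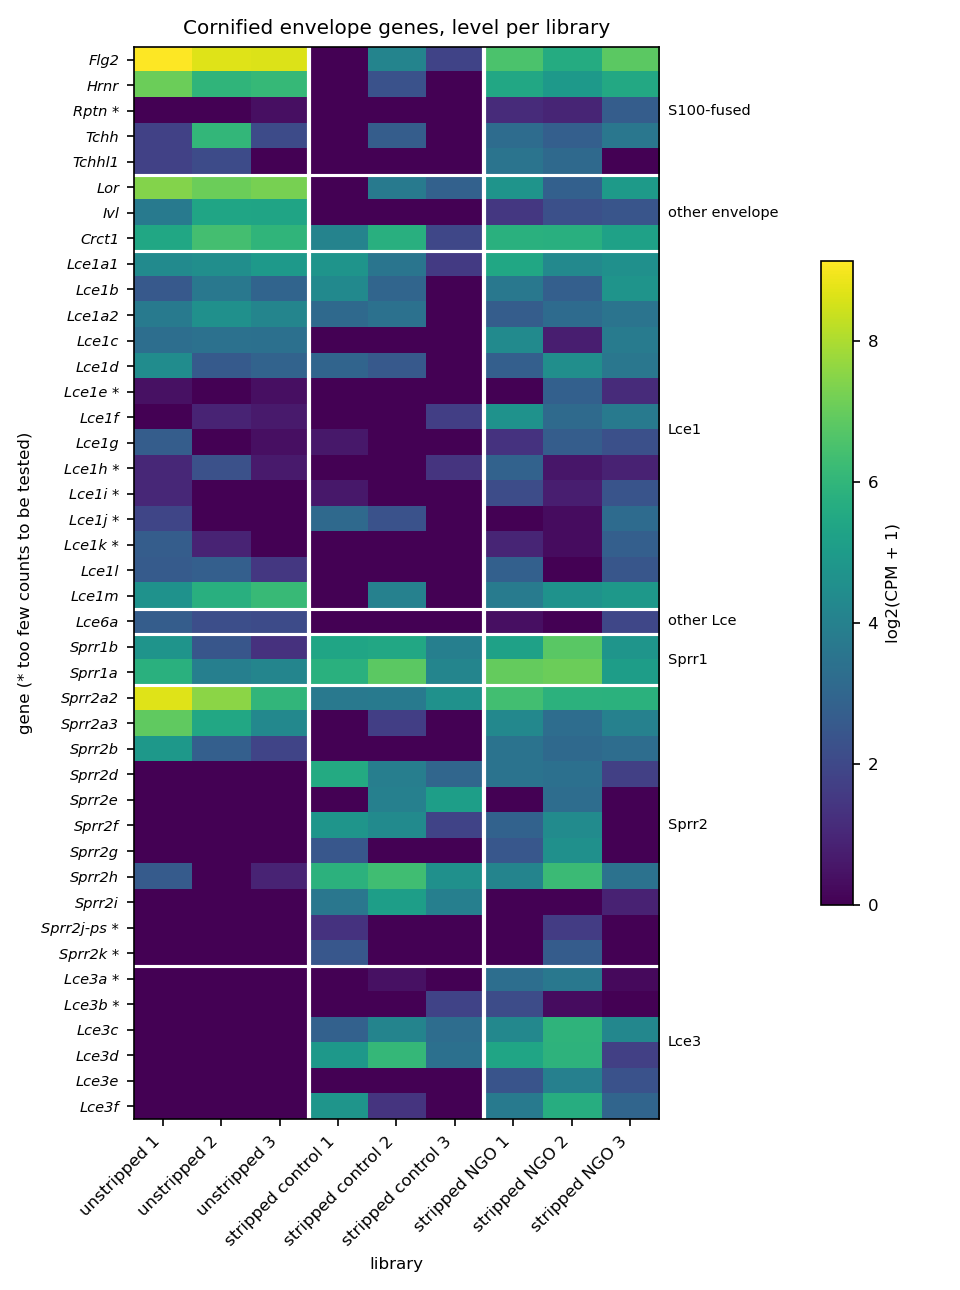
Level of each of the 42 envelope genes with at least 1 count (rows, by gene group) in each of the 9 libraries (columns), as log2(CPM + 1) on the colour scale. Flg2, Hrnr, Lor and Ivl are bright in unstripped skin and dark in stripped control skin, while all 6 Lce3 genes are at 0 in unstripped skin.

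Among the S100-fused genes, Flg2 (chromosome 3, 93197278 to 93221391), which encodes filaggrin-2, stood at 557, 413 and 396 CPM in the 3 unstripped libraries. It was at 0, 16.2 and 2.56 CPM in stripped control and at 91.6, 47.6 and 113 CPM in NGO-treated libraries. The 3 groups did not overlap, and the NGO-treated libraries lay between the others. The log2 fold change was -6.12 ± 0.89 (SE) after stripping (edgeR adjusted p = 0.000468) and 3.68 ± 0.81 with NGO against stripped control (adjusted p = 0.0227). The second call was lost when stripped control replicate 3, NGO replicate 1 or NGO replicate 3 was left out (up to adjusted p = 0.0703), in a fit of the 2 groups alone (0.133) and without a low-count filter (0.135). Against unstripped skin the NGO-treated level differed by -2.44 ± 0.73 (adjusted p = 0.135), past the threshold with DESeq2 (0.0206), in the fit of those 2 groups alone (0.0045) and when stripped control replicate 1 or 2 was left out (down to 0.0155).

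Hrnr (93319749 to 93333570) encodes hornerin, another filaggrin-like repeat protein. Its levels were 134, 61.6 and 68.6 CPM in unstripped, 0, 3.88 and 0 CPM in stripped control and 43.9, 29.5 and 44.2 CPM in NGO-treated libraries. Again the groups did not overlap. It fell by 5.96 ± 1.04 on the log2 scale after stripping (edgeR adjusted p = 0.00166) and rose by 4.79 ± 0.997 with NGO (adjusted p = 0.0181), a call lost without NGO replicate 1 (0.0593) and in the fit of the 2 groups alone (0.142). Against unstripped skin the NGO-treated level differed by -1.17 ± 0.81, which did not pass (edgeR adjusted p = 0.717).

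Trichohyalin (Tchh), a protein of the inner root sheath of hair, was at 2.39, 64.8 and 3.23 CPM in unstripped, 0, 5.50 and 0 in stripped control and 8.41, 5.75 and 11.4 in NGO-treated libraries. The high unstripped library was replicate 2, in which 9 hair shaft and root sheath markers summed to 90.0 CPM, against 8.55 and 5.28 CPM in replicates 1 and 3. Its relative Tchhl1 was at 0 in all stripped control libraries, at 10.5, 7.59 and 0 CPM with NGO and at 2.39, 3.22 and 0 CPM in unstripped skin. Pooled over the group, the NGO level of Tchhl1 was at least 13.5-fold above stripped control skin, though NGO replicate 3 had 0 counts. The difference did not pass (edgeR adjusted p = 0.18). Repetin (Rptn) had too few counts to test, with 41 counts in NGO-treated libraries, 33 of them in replicate 3, against 1 in unstripped and 0 in stripped control libraries. Cornulin (Crnn) had 0 counts throughout.

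**Figure D2:**
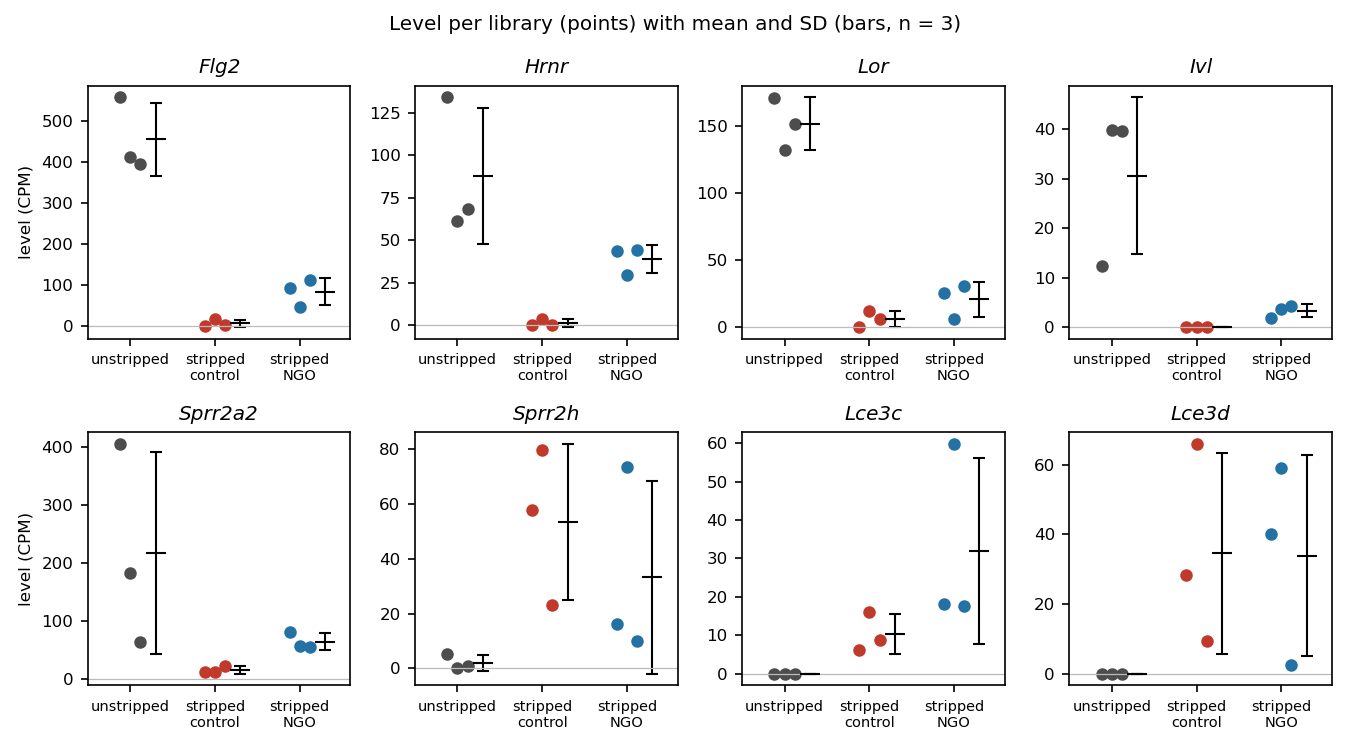
Level in CPM of 8 envelope genes in each library (points), with the group mean and SD (bars, n = 3), each panel on its own linear axis. Flg2, Hrnr, Lor, Ivl and Sprr2a2 have their highest group mean in unstripped skin, and Sprr2h, Lce3c and Lce3d are at or near 0 there.

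Loricrin and involucrin transcripts fell after stripping, and neither passed the test with NGO. Lor (92080271 to 92083142, minus strand) was at 171, 132 and 152 CPM in unstripped, 0, 12.3 and 6.07 in stripped control and 25.5, 5.98 and 30.6 in NGO-treated libraries. Stripped and NGO-treated ranges overlapped, while both lay below unstripped skin. Lor fell by 4.58 ± 0.92 on the log2 scale after stripping (edgeR adjusted p = 0.00431), and the NGO difference of 1.71 ± 0.83 did not pass (adjusted p = 0.26). Against unstripped skin the NGO-treated level differed by -2.87 ± 0.83 (adjusted p = 0.116), past the threshold with DESeq2 (0.0127), in the fit of those 2 groups alone (0.0133) and without stripped control replicate 1 (0.0107).

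Ivl (92570902 to 92573735) was at 12.3, 39.9 and 39.6 CPM in unstripped skin and at 0 counts in each stripped control library, a drop of at least 85.8-fold (edgeR adjusted p = 0.00364). In NGO-treated skin it was at 1.80, 3.68 and 4.30 CPM, above every stripped control library and below every unstripped one. That level was at least 9.53-fold higher than in stripped control skin, just outside the threshold (adjusted p = 0.053) and past it with DESeq2 (0.00691). Crct1, the cysteine-rich C-terminal gene next to the Lce genes, was at 42.1, 83.3 and 61.0 CPM in unstripped, 15.95, 53.7 and 2.88 in stripped control and 54.4, 53.4 and 35.9 CPM in NGO-treated libraries. Its groups overlapped in all 3 comparisons, with log2 differences of -1.36 ± 0.76 after stripping (adjusted p = 0.274) and 0.98 ± 0.75 with NGO (adjusted p = 0.5). Without stripped control replicate 2, its highest stripped library, the first became -2.79 and passed (0.0275).

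Promoter sequences are shown for genes that moved in different directions. They cover 250 bases before to 50 after the start site in RefSeq (build GRCm38.p6), written 5′ to 3′ along the gene. Capitals mark a match to TGANTCA (N is any base), which reads the same on both strands. It is a looser form of TGAGTCA or TGACTCA, the core of an AP-1 site (Fos and Jun family factors).
Lor (chr3:92083093-92083392, minus strand): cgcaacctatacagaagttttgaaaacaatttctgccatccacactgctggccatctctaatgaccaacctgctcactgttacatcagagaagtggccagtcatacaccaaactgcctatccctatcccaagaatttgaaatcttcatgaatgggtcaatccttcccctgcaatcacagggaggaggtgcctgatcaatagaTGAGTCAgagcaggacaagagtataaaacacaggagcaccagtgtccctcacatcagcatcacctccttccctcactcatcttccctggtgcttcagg
Sprr2b (chr3:92316455-92316754, plus strand): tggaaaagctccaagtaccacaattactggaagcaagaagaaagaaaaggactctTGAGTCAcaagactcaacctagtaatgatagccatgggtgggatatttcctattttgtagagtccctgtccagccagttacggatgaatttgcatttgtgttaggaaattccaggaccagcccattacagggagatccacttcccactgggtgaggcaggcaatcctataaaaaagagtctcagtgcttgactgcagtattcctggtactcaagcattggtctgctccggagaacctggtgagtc
Sprr2h (chr3:92385435-92385734, plus strand): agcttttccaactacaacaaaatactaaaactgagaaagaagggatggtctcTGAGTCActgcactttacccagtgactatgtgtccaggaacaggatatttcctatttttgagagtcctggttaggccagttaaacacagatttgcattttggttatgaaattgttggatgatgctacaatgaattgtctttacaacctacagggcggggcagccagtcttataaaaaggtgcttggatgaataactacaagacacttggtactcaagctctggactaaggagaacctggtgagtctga
Lce3d (chr3:92957140-92957439, plus strand): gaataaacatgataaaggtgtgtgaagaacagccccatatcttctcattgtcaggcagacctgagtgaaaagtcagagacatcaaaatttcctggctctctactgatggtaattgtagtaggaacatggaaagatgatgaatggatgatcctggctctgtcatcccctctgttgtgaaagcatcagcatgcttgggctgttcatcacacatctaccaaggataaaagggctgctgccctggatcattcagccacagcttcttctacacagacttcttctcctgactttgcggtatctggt
Of the 43 envelope genes with a promoter in that collection, 15 (34.9%) held the motif, against 7.81% of 32851 promoters of the same length. They were 7 of 10 Sprr2 promoters (all but Sprr2a1, Sprr2a2 and Sprr2a3), both Sprr1 promoters, Lor, Ivl and 4 of 6 S100-fused promoters, and 0 of 20 Lce promoters. In Crnn, Flg2, Tchhl1 and Sprr1b the match was TGAATCA and in Rptn TGATTCA, outside the stricter AP-1 core. The others held TGAGTCA or TGACTCA. Counted from the start site, the match began at base -48 in Lor, -195 in Sprr2b and -198 in Sprr2h. The Sprr2 genes called higher after stripping (Sprr2d, Sprr2f, Sprr2h and Sprr2i) all held the motif. Of those called lower, Sprr2b held it, and Sprr2a2 and Sprr2a3 did not. Lor and Ivl also fell and held it, so genes of both directions hold these letters. Near-identical promoters of neighbouring copies are not independent, and a match is a description of the letters in this window.

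Among the Lce1 genes, 9 of 14 were tested, and Lce1c alone was called after stripping. Their summed level was 112, 135 and 143 CPM in unstripped, 67.4, 51.1 and 5.75 in stripped control and 140, 100.1 and 151 in NGO-treated libraries. The stripped control libraries lay below all others, and the NGO-treated range overlapped that of unstripped skin. Lce1c (92679247 to 92680918) was even across unstripped libraries at 8.90, 9.67 and 9.38 CPM and at 0 counts in each stripped control library, a drop of at least 25.4-fold (edgeR adjusted p = 0.0336). The call was lost in 7 of 9 fits that left out 1 library (up to adjusted p = 0.0839). With NGO it was at 19.5, 0.69 and 12.7 CPM, and replicate 2 held 3 counts. Pooled over the group, that was at least 28.8-fold above stripped control skin (edgeR adjusted p = 0.0575, and 0.0019 with DESeq2).

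The other Lce1 genes differed between single libraries. Lce1m, the copy that lies apart from the main cluster, was at 24.0, 52.5 and 70.7 CPM in unstripped, 0, 15.2 and 0 in stripped control and 12.9, 24.2 and 28.5 in NGO-treated libraries, and its log2 difference of -3.24 ± 1.32 after stripping did not pass (edgeR adjusted p = 0.127). It passed without stripped control replicate 2, which held all its stripped control counts (0.00131). Lce1a1 had levels of 25.2, 10.7 and 1.92 CPM in stripped control skin, against 19.5, 21.7 and 29.3 in unstripped and 42.4, 18.9 and 22.8 in NGO-treated skin. Lce1b and Lce1d were at 4.85 to 19.0 CPM in stripped control replicates 1 and 2, against 4.79 to 20.9 CPM in unstripped libraries, and at 0 in replicate 3. Lce1a2 was at 7.72, 9.70 and 0 CPM in stripped control and 5.41, 8.05 and 10.3 in NGO-treated libraries. All lay below the unstripped ones (12.3, 22.9 and 16.7 CPM), and neither difference passed (edgeR adjusted p = 0.511 and 0.916). Lce1f was at most at 0.88 CPM in unstripped and 2.24 CPM in stripped control libraries and at 24.0, 7.82 and 12.6 CPM with NGO. Those NGO values lay above all other libraries, with adjusted p = 0.228 against stripped control and 0.338 against unstripped skin. In stripped control libraries Lce6a and Lce1l had no counts, which puts them at least 10.9-fold and 11.5-fold below unstripped skin (adjusted p = 0.116 and 0.112).

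The Sprr2 genes moved in opposite directions within 1 cluster of 218 kb. Sprr2a2 (92215920 to 92256724) was at 405, 183 and 63.6 CPM in unstripped, 11.8, 12.6 and 23.3 in stripped control and 81.1, 57.5 and 55.1 in NGO-treated libraries. It fell by 3.76 ± 0.61 on the log2 scale after stripping (edgeR adjusted p = 0.00102), and the NGO-treated libraries all lay above stripped control ones (2.01 ± 0.57, adjusted p = 0.0611, and 0.033 without unstripped replicate 3). Sprr2a3 went from 118, 43.4 and 18.2 CPM to 0, 2.26 and 0 CPM and stood at 18.3, 8.51 and 15.2 CPM with NGO. Sprr2b went from 28.4, 5.86 and 2.64 CPM to 0 counts, at least 31.3-fold lower, and stood at 10.2, 7.59 and 8.61 CPM with NGO. Both falls were called (adjusted p = 0.00549 and 0.0234) and both calls were lost without unstripped replicate 1 (0.0689 and 0.122), while the NGO differences did not pass (0.0669 and 0.0558). That of Sprr2a3 passed without stripped control replicate 2, which held its only stripped control counts (0.0193).

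Further along the same cluster, Sprr2h (92385685 to 92387324) was at 5.13, 0 and 0.88 CPM in unstripped, 57.6, 79.5 and 23.0 in stripped control and 16.2, 73.6 and 9.93 in NGO-treated libraries. It rose by 4.74 ± 1.21 on the log2 scale after stripping (edgeR adjusted p = 0.0191), a call lost without unstripped replicate 3 (0.0727). With NGO every library lay above the unstripped ones, and the range overlapped that of stripped control skin (-0.68 ± 1.01, adjusted p = 0.765). Sprr2d was at 46.8, 13.9 and 7.03 CPM in stripped control and 10.2, 9.20 and 2.32 CPM in NGO-treated libraries, and Sprr2f at 26.2, 19.7 and 2.56 CPM and 6.31, 20.02 and 0 CPM. Unstripped libraries held no count of Sprr2d, Sprr2f or Sprr2i. Their pooled levels after stripping were at least 62.1-fold, 47.7-fold and 68.4-fold higher (adjusted p = 0.00892, 0.0447 and 0.0252). Leaving out 1 library ended the Sprr2f call in 7 of 9 fits (up to 0.127) and the Sprr2i call in 4 of 9 (0.089).

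Sprr2i (92407991 to 92409271) was the induced Sprr2 gene with the lowest NGO-treated levels. It was at 11.3, 33.9 and 14.4 CPM in stripped control skin and at 0, 0 and 0.83 CPM with NGO, where the range lay below every stripped control library. The log2 difference of -5.89 ± 1.93 did not pass with edgeR (adjusted p = 0.106, 0.0943 to 0.231 over the other edgeR fits) and passed with DESeq2 (0.00465). Sprr2e was at 0, 14.9 and 33.9 CPM in stripped control and 0, 8.51 and 0 CPM in NGO-treated libraries, and Sprr2g reached 22.8 CPM in NGO replicate 2. Sprr2j-ps and Sprr2k had counts in stripped control replicate 1 and NGO replicate 2 alone. Split after the values were seen, Sprr2a1, Sprr2a2, Sprr2a3 and Sprr2b summed to 289 ± 239, 16.7 ± 5.96 and 87.4 ± 19.4 CPM (SD, n = 3) in the unstripped, stripped control and NGO-treated groups. The other 8 Sprr2 genes summed to 2.0 ± 2.74, 132 ± 44.4 and 63.9 ± 68.3 CPM.

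The sources used here do not say how a read that matches several genes was counted. In the GENCODE M21 transcripts, 96.5% of the 50-base stretches of Sprr2a2 also occur in another envelope gene, and 61.1% of those of Sprr2a3, so counts may have been split or merged among the Sprr2a copies. For Sprr2h, Sprr1a, Sprr1b, Lor, Ivl, Flg2 and Hrnr the share was 0%. For the 6 Lce3 genes it was 12.1% to 49.3%, so the split among them may be uncertain too. For the Lce1 genes other than Lce1m it was 9.12% to 25.4%, with Lce1c at 23.9%. For Sprr2b, Sprr2d, Sprr2e, Sprr2f and Sprr2i it was 0.714% to 14.1%. These shares cover whole transcripts, while QuantSeq tags come from transcript ends. They therefore do not measure how many reads match several genes.

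Sprr1a and Sprr1b, cross-bridging proteins of stressed and internal epithelia, did not pass in any comparison with all 9 libraries. Sprr1a (92483952 to 92485895) was at 54.4, 14.4 and 16.7 CPM in unstripped, 54.5, 111 and 16.9 in stripped control and 123, 135 and 32.4 in NGO-treated libraries. Sprr1b was at 25.7, 4.40 and 1.47 CPM, 40.1, 43.3 and 14.4 CPM, and 36.6, 110 and 26.2 CPM in the same order. After stripping the log2 differences were 1.10 ± 0.73 and 1.64 ± 0.93 (edgeR adjusted p = 0.375 and 0.284), and with NGO against unstripped skin they were 1.77 ± 0.74 and 2.46 ± 0.95 (adjusted p = 0.351 and 0.285). Without unstripped replicate 1 the Sprr1b difference after stripping became 3.44 and passed (0.0479), and over the fits leaving out 1 library that of Sprr1a ran from 0.31 to 1.95. Unstripped replicate 1 held the highest level of its group for Sprr1a, Sprr1b, Sprr2a2, Sprr2a3, Sprr2b and Sprr2h, also for Flg2, Hrnr and Lor, and the lowest for Ivl and Crct1. Its backbone genes summed to 28145 CPM, against 17886 and 18190 CPM in replicates 2 and 3. In that library 4 stress keratin genes (Krt6a, Krt6b, Krt16 and Krt17) summed to 2732 CPM, against 1027 and 927 CPM in the other two.

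All 6 Lce3 genes had 0 counts in all 3 unstripped libraries. Lce3d (92957390 to 92958505) was at 28.3, 65.9 and 9.27 CPM in stripped control and at 40.0, 59.1 and 2.32 CPM in NGO-treated libraries. Pooled over each group, it was at least 115-fold higher after stripping and at least 95.7-fold higher with NGO than in unstripped skin (edgeR adjusted p = 0.0044 and 0.0145). The stripped groups overlapped, with a log2 difference of -0.03 ± 1.06 (adjusted p = 0.994). Lce3c (92944486 to 92945733) was at 6.17, 16.2 and 8.63 CPM in stripped control and 18.0, 59.8 and 17.7 CPM in NGO-treated libraries, at least 35.4-fold and 101.1-fold above unstripped skin (adjusted p = 0.00554 and 0.00734). Its NGO-treated libraries all lay above the stripped control ones, by a log2 difference of 1.62 ± 1.02 that did not pass (adjusted p = 0.401). Both NGO calls against unstripped skin were lost without NGO replicate 2 (0.0563 for Lce3c and 0.057 for Lce3d), and that of Lce3d also without unstripped replicate 1.

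Lce3e (92967061 to 92968281) had 0 counts in all unstripped and stripped control libraries and stood at 4.20, 14.7 and 3.97 CPM with NGO, at least 20.2-fold above stripped control skin (edgeR adjusted p = 0.126). Lce3f was at 26.2, 1.62 and 0 CPM in stripped control and 12.3, 50.4 and 6.79 CPM in NGO-treated libraries. Pooled over each group, these levels were at least 22.3-fold and 71.3-fold above unstripped skin. Neither passed (adjusted p = 0.0573 and 0.11), and both did with DESeq2 (0.00221 and 0.000946). Without stripped control replicate 3 both passed as well (0.0236 for stripping), and without stripped control replicate 1 the second did (0.0396). Lce3a was too low to test, with 29, 50 and 1 counts in the NGO-treated libraries and 1 count in all others together. Over the 6 genes the summed level was 60.7, 84.0 and 20.5 CPM in stripped control and 86.5, 196 and 30.9 CPM in NGO-treated libraries, ranges that overlap.

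**Figure D3:**
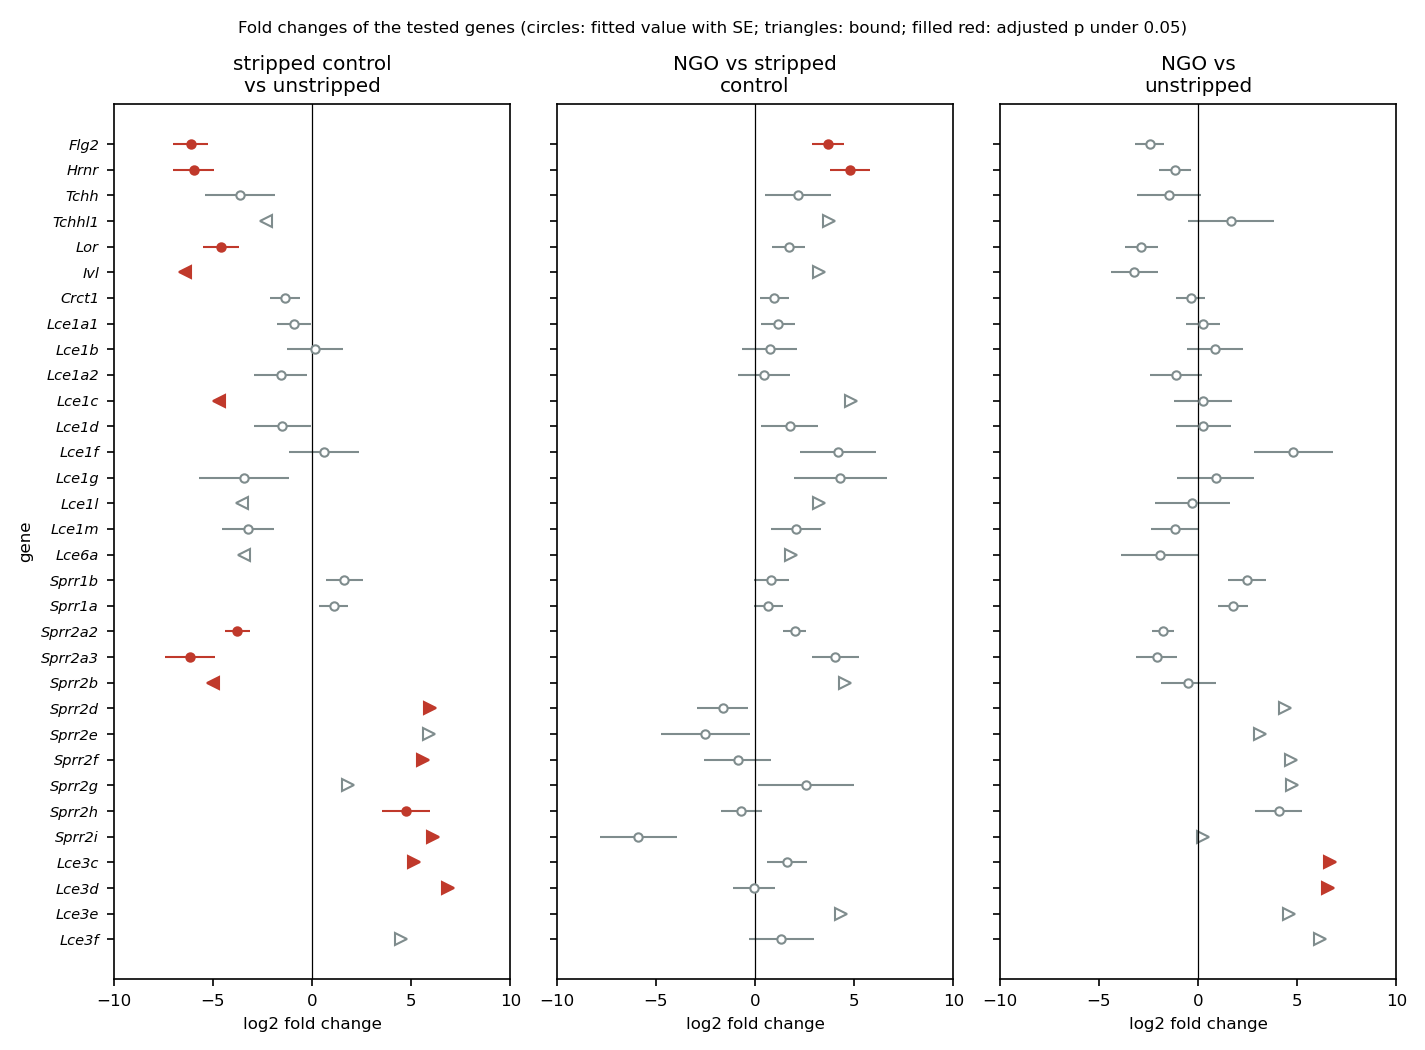
Log2 fold change of the 32 tested genes in the 3 comparisons, with fitted values and SE as circles and, where a group had 0 counts, the bound set by 3 counts as triangles. Red filled symbols passed an adjusted p under 0.05. Lce3e has no value in the first panel because both groups were at 0.

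The 12 epidermal backbone genes fell after stripping themselves (11 of 12 called lower). With NGO against stripped control skin, 10 of 12 were called higher. Set against these genes, the gene groups took another order. Per 1000 CPM of backbone genes, the S100-fused genes stood at 26.9 ± 3.0 in unstripped libraries, 2.95 ± 4.09 after stripping and 7.78 ± 2.13 with NGO (SD, n = 3). On this scale their stripped control libraries (0, 7.62 and 1.23) overlapped the NGO-treated ones (6.89, 6.25 and 10.2), while both groups lay below the unstripped libraries. The Lce1 genes stood at 6.45 ± 2.16, 13.7 ± 10.3 and 7.30 ± 1.40, and their groups overlapped. The 8 Sprr2 genes outside Sprr2a and Sprr2b stood at 0.0769 ± 0.0945, 46.6 ± 7.02 and 4.03 ± 4.91, with stripped control libraries at 38.9 to 52.6 and NGO-treated ones at 0.767 to 9.68. Sprr2a and Sprr2b together stood at 12.4 ± 7.49, 6.57 ± 4.02 and 4.84 ± 0.204, and Lor, Ivl, Crct1 and Lelp1 together at 12.1 ± 3.50, 9.83 ± 8.56 and 4.03 ± 0.362. For both sets the stripped control range overlapped the unstripped one. The Lce3 genes stood at 0, 18.6 ± 7.88 and 6.35 ± 6.18, and the Sprr1 genes at 1.63 ± 1.05, 31.3 ± 15.6 and 9.09 ± 6.88. These ratios are given with no test.

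**Figure D4:**
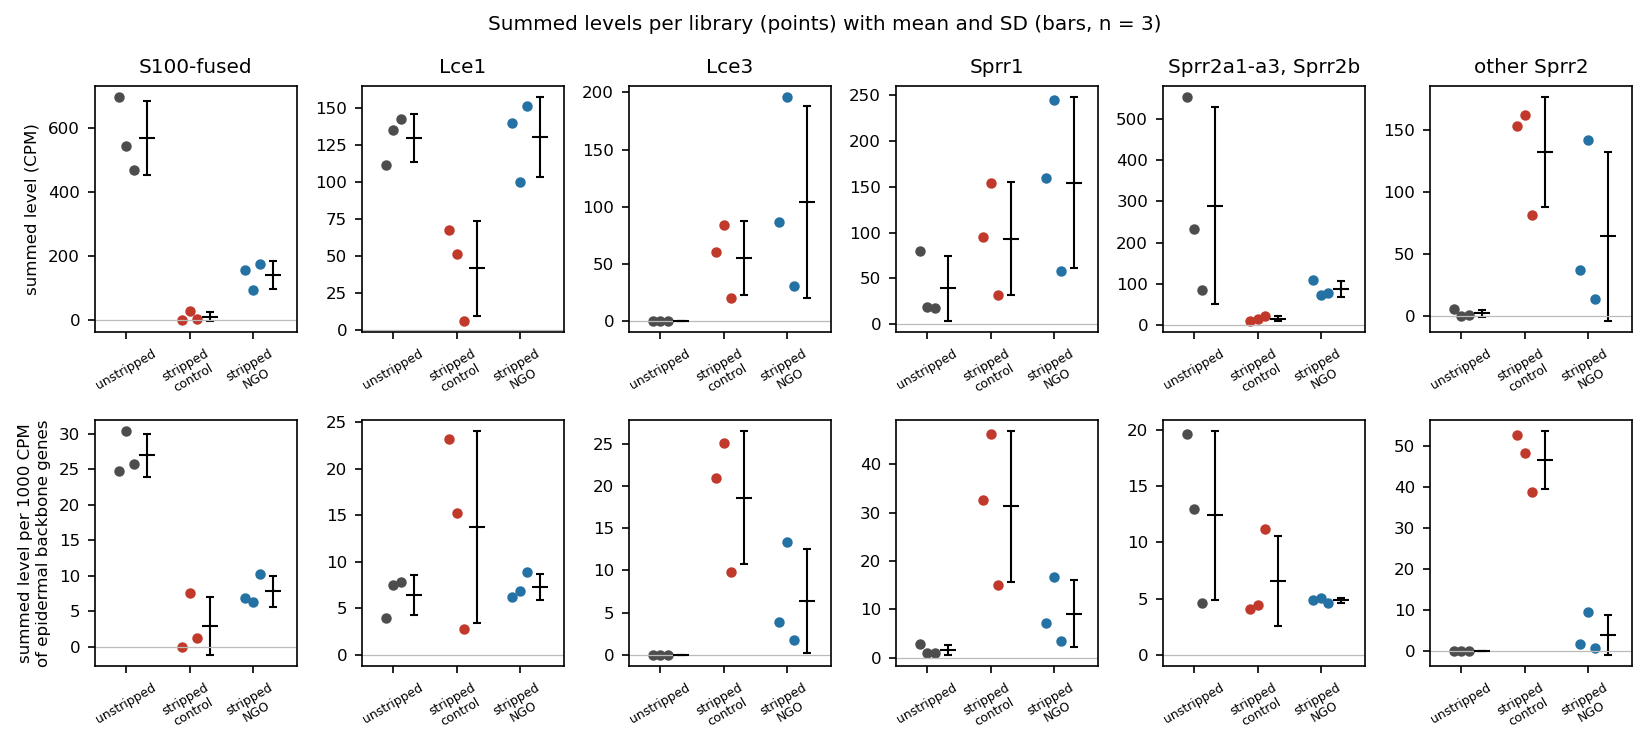
Summed level of 6 gene groups in each library (points) with mean and SD (bars, n = 3), in CPM (upper panels) and per 1000 CPM of 12 epidermal backbone genes (lower panels). The other Sprr2 genes reach 38.9 to 52.6 per 1000 in stripped control libraries and at most 9.68 in NGO-treated ones, while S100-fused genes are highest in unstripped skin on both scales.

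Genes that work with the envelope proteins were described from a list of 54, of which 51 were tested. After stripping 25 were called lower and 4 higher, against 7.64% and 5.97% of all genes, with a median log2 fold change of -2.54 (-0.20 over all genes). With NGO against stripped control skin 19 were called higher and 1 lower, against 3.87% and 1.18% of all genes (median 1.73, and 0.07 over all). Against unstripped skin 2 were called higher and 7 lower, against 2.06% and 0.451% (median -0.88, and -0.07 over all). Of 10 genes listed as scaffold and junction, 8 were called lower and 0 higher after stripping. That set includes Pnpla1, a lipid enzyme gene and 1 of the 8. Of 15 other envelope proteins, 9 were called lower and 1 higher (Csta1), and of 14 transcription factor genes 5 lower and 2 higher (Fosl1 and Nfe2l2). With NGO against stripped control skin 5, 8 and 5 genes of these sets were called higher and 0 lower. Dsp, Jup, Pkp1 and Trp63 are also epidermal backbone genes, so the partner and backbone lists are not separate observations. By smallest p the leading genes were, after stripping, the differentiation gene Krtdap (1761 ± 250 to 90.0 ± 26.4 CPM), the cytokine gene Il1b (6.22 ± 1.47 to 565 ± 308 CPM), the suprabasal keratin genes Krt1 (581 ± 7.44 to 0.862 ± 1.49 CPM) and Krt10 (6679 ± 3548 to 132 ± 57.8 CPM), and the envelope precursor gene Scel (309 ± 10.3 to 13.0 ± 3.77 CPM; SD, n = 3). Il1b, listed as an inducer of stress programmes, was the member that rose among these 5.

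With NGO against stripped control skin the 5 partner genes with the smallest p were Krt1 (64.2 ± 26.7 CPM with NGO), Krtdap (427 ± 103), the desmosome genes Pkp1 (61.0 ± 8.81 to 348 ± 139) and Dsp (122 ± 78.4 to 710 ± 49.4), and the keratin gene Krt77 (from 0 counts to 9.64 ± 5.18 CPM). All 5 were called higher, with edgeR adjusted p from 0.00127 to 0.00487. The partner gene called lower was Il1b (565 ± 308 to 109 ± 59.1 CPM, edgeR adjusted p = 0.012). Against unstripped skin Krt10, Krtdap, Scel and Krt1 were still called lower with NGO (log2 fold changes of -4.81, -2.04, -2.72 and -3.18) and Il1b higher (4.12). Neither tested transglutaminase gene passed in any comparison. Tgm1 was at 4.27 ± 1.14, 11.5 ± 10.9 and 8.35 ± 8.64 CPM and Tgm3 at 6.73 ± 3.53, 0.343 ± 0.594 and 5.07 ± 4.61 CPM in the unstripped, stripped control and NGO-treated groups. Fosl1, which encodes the AP-1 subunit Fra-1 and is named here after its values were seen, was at 3.98 ± 4.85, 52.7 ± 15.5 and 72.2 ± 38.7 CPM in that order and was called higher in both stripped groups against unstripped skin (adjusted p = 0.00901 and 0.0152).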

How the data were processed

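Each of the 9 libraries came with a deposited table of raw counts by gene symbol, made by the authors from 500 ng of total RNA with the Lexogen QuantSeq kit per the labels' protocols. The submitters' processing notes list Bowtie2, bedtools and mm10 with no versions. Strand and the handling of reads with several matches are not given in the sources used here. Some symbols occur more than once (44 extra entries), none of them an envelope gene, and these stayed separate. All entries carried a gene name. The mm10 coordinates of all 47 envelope genes are those of GENCODE M21.

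Counts were fitted in R 4.3.3 with the edgeR 4.0.16 quasi-likelihood test (robust, TMM scaling, default low-count filter, 13740 genes) over all 9 libraries with group as the factor. P-values were adjusted over all genes tested (Benjamini-Hochberg) and called under 0.05. The SE is the log2 fold change divided by the root of F. CPM uses TMM-scaled library sizes. Folds against a group at 0 use 3 counts over that group (0.308 CPM unstripped, 0.367 stripped control, 0.219 NGO-treated) and cover counting error alone. The code was tested on simulated data. With 3 libraries a group, no exact permutation test can reach a two-sided p below 0.1, so none was used.

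The envelope genes, the partner and marker lists and the tests were chosen with earlier results of these data known. Named were all genes called in a comparison or at 10 CPM or more in a library, the most counted of each group, and the 5 partner genes with the smallest p per comparison. Alternatives were RLE and upper-quartile scaling, no filter, a filter of 20 counts in 3 libraries, DESeq2 1.42.0, blocking on the replicate number, fitting only the 2 groups compared, library sizes computed without muscle genes, red blood cell genes and the ribosomal precursor Rn45s, and leaving out each library.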

Additional observations from a re-analysis of the deposited data

How the results depend on the processing

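The counts of called envelope genes after stripping stayed within 1.5 times of 8 lower and 6 higher under each scaling, filter, DESeq2 and the fit of 2 groups. Over the fits leaving out 1 library they ran from 5 to 10 lower and from 3 to 7 higher. With NGO against stripped control skin the higher calls (2) became 5 without a low-count filter, 7 with DESeq2 and 0 in the fit of the 2 groups, and ran from 0 to 4 leaving out 1 library. The lower calls (0) became 1 with DESeq2. Against unstripped skin the higher calls (2) became 5 without a filter and 6 with DESeq2, and ran from 0 to 3 leaving out 1 library, while the lower calls (0) became 3 with DESeq2 and 3 in the fit of the 2 groups and ran from 0 to 2. The causes were not tested. Leaving out 1 library turned the sign of 2 small differences with NGO against stripped control, Sprr1b (-0.0468 without NGO replicate 2, up to 1.15) and Lce3d (-0.71 to 0.87). RLE scaling and DESeq2 moved the median of all genes by 0.13 after stripping and by -0.12 with NGO against stripped control. The replicate block moved it by -0.26, 0.12 and, with NGO against unstripped skin, -0.10.

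Replicate numbers gave no sign of pairing: same-numbered libraries of different groups had deviations that correlated at -0.06 to 0.09. Differently numbered ones correlated at -0.14 to 0.07. With 3 libraries a group, this check could miss a weak pairing. With the replicate block the calls were 6 lower and 4 higher after stripping, 2 higher with NGO against stripped control and 2 higher against unstripped skin. At these depths 15 of the 47 genes could not be tested.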
